A study of Mus musculus with 24 samples.

Results

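Polycomb genes were followed across the 6 groups of mouse LSK libraries, 10 of the 55487 genes of the deposited count table, taken by symbol. They were Ezh2 and Ezh1, Eed, Suz12 and Jarid2 of Polycomb repressive complex 2 (PRC2), and Ring1, Bmi1, Cbx2, Cbx7 and Cbx8 of Polycomb repressive complex 1 (PRC1). All 10 passed the filter on low counts in the fit of 23059 genes. LSK cells are the lineage-negative, Sca-1-positive, KIT-positive fraction that holds the blood stem cells and early progenitors.

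Each group had 4 libraries, and each library is 1 bulk sample. P0 WT was wild-type liver at postnatal day 0. P0 ME was liver of the same age from mice whose Tet-off human MLL::ENL transgene (ME), a leukaemia fusion gene, had been induced in the embryo at E10.5. P28 WT was wild-type bone marrow at postnatal day 28, and the remaining groups were also bone marrow of that age. P28 ME (E10.5) and P28 ME (P0) carried the transgene induced at E10.5 and at day 0. P28 RLT Vav Txp also carried the transgene induced at E10.5, and the labels do not expand the words RLT Vav Txp. The labels used here do not name the promoter or cell type that drives the transgene, and they give the sorted cells as LSK where the design text gives lineage-negative KIT-positive progenitors. The design text calls the samples biological replicates. Liver was sampled only at day 0 and marrow only at day 28, so age and tissue cannot be told apart.

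PRC2 trimethylates a lysine in the tail of histone H3, a mark of silenced genes, with EZH2 or EZH1 as the alternative catalytic subunit. EZH2 is the form of dividing cells, including fetal blood progenitors, and EZH1 is relatively more abundant in quiescent and adult cells. PRC1 places ubiquitin on histone H2A through RING1 or RNF2, and its chromodomain (CBX) subunits read the PRC2 mark. In blood, BMI1 is known for its need in stem cell self-renewal, and PRC2 is known for keeping lineage genes silent in stem and progenitor cells.

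The promoters of 3 PRC2 genes are shown because Ezh2 and Suz12 had levels that moved together over the libraries while Ezh1 differed from them. The sequences are from RefSeq on GRCm38.p6, run 5′ to 3′ on the strand of the gene, and cover 250 bases before to 30 bases after the start site. Capitals mark matches on either strand to E2F words (TTTGGCGC, TTTCGCGC, TTTCCCGC or TTTGCCGC) and to the CCAAT box (CCAAT, or ATTGG as its reverse complement).
Ezh2, chr6:47595001-47595280, minus strand: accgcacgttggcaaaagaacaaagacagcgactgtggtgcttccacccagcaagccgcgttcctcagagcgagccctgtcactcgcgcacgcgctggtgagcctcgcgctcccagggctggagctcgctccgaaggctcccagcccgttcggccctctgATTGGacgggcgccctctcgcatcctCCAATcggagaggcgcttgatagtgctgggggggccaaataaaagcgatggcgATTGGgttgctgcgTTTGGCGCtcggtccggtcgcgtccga
Suz12, chr11:79992856-79993135, plus strand: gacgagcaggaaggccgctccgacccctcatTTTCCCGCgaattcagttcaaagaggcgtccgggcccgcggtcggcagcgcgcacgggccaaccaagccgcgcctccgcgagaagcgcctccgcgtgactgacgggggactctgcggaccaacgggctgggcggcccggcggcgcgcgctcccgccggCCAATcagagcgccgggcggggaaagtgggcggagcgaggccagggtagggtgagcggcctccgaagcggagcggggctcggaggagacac
Ezh1, chr11:101226434-101226713, minus strand: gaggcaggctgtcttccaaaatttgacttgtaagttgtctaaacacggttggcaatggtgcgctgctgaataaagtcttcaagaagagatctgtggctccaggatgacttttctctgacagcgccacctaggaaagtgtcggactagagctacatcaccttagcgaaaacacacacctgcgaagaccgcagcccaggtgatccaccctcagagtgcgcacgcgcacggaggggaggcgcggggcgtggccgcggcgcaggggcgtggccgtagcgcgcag
The Ezh2 window held 1 E2F word, with its first base at position 4 from the start site, and 3 CCAAT boxes, the first bases at -90, -64 and -11. The Suz12 window held 1 E2F word at -219 and 1 CCAAT box at -61. Neither of these motifs was in the Ezh1 window, which says only that these letters are not there.

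Promoter entries were found for 9 of the 10 genes, with 2 start sites for Jarid2 and thus 10 windows. No entry matched Cbx2. Of the 9 genes, only Ezh2 and Suz12 held an E2F word, which 2.12% of 32851 mouse promoters of the same length held. CCAAT boxes were in the windows of Ezh2, Suz12, Eed, Cbx7 and Cbx8 and in both windows of Jarid2, against 36.1% of all promoters. Other motifs searched were TTTGAA, the E-box and the NRF1 motif. TTTGAA, the cell-cycle homology region, was in the windows of Eed, Suz12 and Cbx7 (17.2% of all promoters). The NRF1 motif was in those of Ezh1, Ezh2 and Cbx7 (2.17%), with 2 overlapping matches in Cbx7. The E-box CACGTG was in those of Bmi1 and Cbx8 (6.79%). The capitals in the printed windows do not overlap matches to these 3 motifs. The matches describe letters, not bound sites.

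Library totals ran from 31233688 to 89774511 counts, and 22351 to 26710 genes had counts in a library. Kit and Ly6a, which codes for Sca-1, had counts in each of the 6 groups. By the test described below, Ly6a was called higher at day 28 than at day 0 in both WT and ME. The libraries of day 0 were mixed in their markers of other cells: the summed level of 8 neutrophil genes ran from 876.5 to 15850 CPM (counts scaled to library size, TMM-normalised) in P0 WT and from 704.9 to 926 CPM in P28 WT. The summed level of 9 erythroid genes ran from 662 to 17850 CPM in P0 WT and from 477 to 643 CPM in P28 WT. In P0 ME the neutrophil sum was 770.3 to 31940 CPM and the erythroid sum 274 to 14040 CPM. The libraries numbered 1 of both day 0 groups stood apart, with the lowest sums of both lists. In P28 RLT Vav Txp the summed level of 7 macrophage genes was 598 to 2589 CPM, against 60.2 to 91.3 CPM in P28 WT. At day 0 this sum was 117.1 to 1228 CPM in P0 WT and 113.6 to 1313 CPM in P0 ME, again lowest in the libraries numbered 1. The part of these cells in the results below was not tested. Fits without the libraries numbered 1 are given, but they keep the day 0 libraries with the higher neutrophil, erythroid and macrophage sums. They therefore do not test the part of these cells. In bulk samples, fewer cells of a type and less RNA per cell cannot be told apart.

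A gene was called when its edgeR quasi-likelihood p, adjusted by Benjamini-Hochberg over the 23059 genes, was under 0.05. Of the 10 Polycomb genes, 0 were called between P28 WT and P0 WT, where 7.68% of all genes were called. An unadjusted edgeR p under 0.05 was reached by 2 of the 10 and by 5015 of the 23059 genes. From P0 ME to P28 ME (E10.5), 3 were higher, where 9.79% of all genes were called higher. Between P0 ME and P0 WT 0 were called in edgeR, DESeq2 or limma voom, beside 0.642% of all genes called in edgeR. At an unadjusted edgeR p under 0.05 were 2 of the 10 and 3251 of the 23059 genes. In P28 ME (E10.5) 5 were higher than in P28 WT, against 7.82% of all genes called higher. That count was 1 to 3 when any 1 library of these 2 groups was left out, 1 with plain library totals or with offsets for GC content and length, and 2 with RLE factors or with either other filter on low counts. In P28 ME (P0) 0 differed from P28 WT in edgeR, beside 1.57% of all genes called. At an unadjusted edgeR p under 0.05 were 5 of the 10 and 4648 of the 23059 genes. DESeq2 called 2 of the 10 in that comparison, Ezh1 and Jarid2, and limma voom called 6. The 1.57% is the share in edgeR, and the shares of all genes in those 2 tools are not given here. None was called in edgeR between the 2 times of induction, beside 0.0477% of all genes. At an unadjusted edgeR p under 0.05 were 0 of the 10 and 998 of the 23059 genes. Limma voom called 2, Cbx2 and Cbx8, and DESeq2 called 0, where the shares of all genes are not given here. In P28 RLT Vav Txp 0 differed from P28 WT in any of the 3 tools, beside 4.12% of all genes in edgeR. At an unadjusted edgeR p under 0.05 were 0 of the 10 and 3518 of the 23059 genes. Against P28 ME (E10.5), 5 were lower in P28 RLT Vav Txp, where 9.38% of all genes were called lower. Those 5 became 0 without P28 RLT Vav Txp library 4, 2 without its library 2 or 3, and 3 without P28 ME (E10.5) library 2 or 4. They became 2 without a filter on low counts and 3 with GC and length offsets. The effect of ME at day 28 minus that at day 0 was called for 0 of the 10 in edgeR, DESeq2 and limma voom. In edgeR it was called for 0.72% of all genes. An unadjusted edgeR p under 0.05 was reached by 1 of the 10 and by 3815 of the 23059 genes. The comparisons share groups, so their counts are not independent of each other.

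Per length, the levels of the 10 genes in P28 WT ran from Eed, Bmi1 and Suz12 down to Jarid2 and Cbx7. In RPKM (reads per kilobase of exon, scaled to library size) Eed was at 39.8 ± 5.31, Bmi1 at 27.7 ± 3.35 and Suz12 at 23.7 ± 1.59 (SD, n = 4). Ezh2 followed at 15.1 ± 1.12 RPKM, then Ring1 at 8.44 ± 1.42, Cbx2 at 8.35 ± 1.33 and Ezh1 at 7.20 ± 1.59 RPKM, whose libraries overlapped. The lowest were Cbx8 at 5.76 ± 1.17, Jarid2 at 5.14 ± 0.947 and Cbx7 at 4.30 ± 0.358 RPKM.

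**Figure D1:**
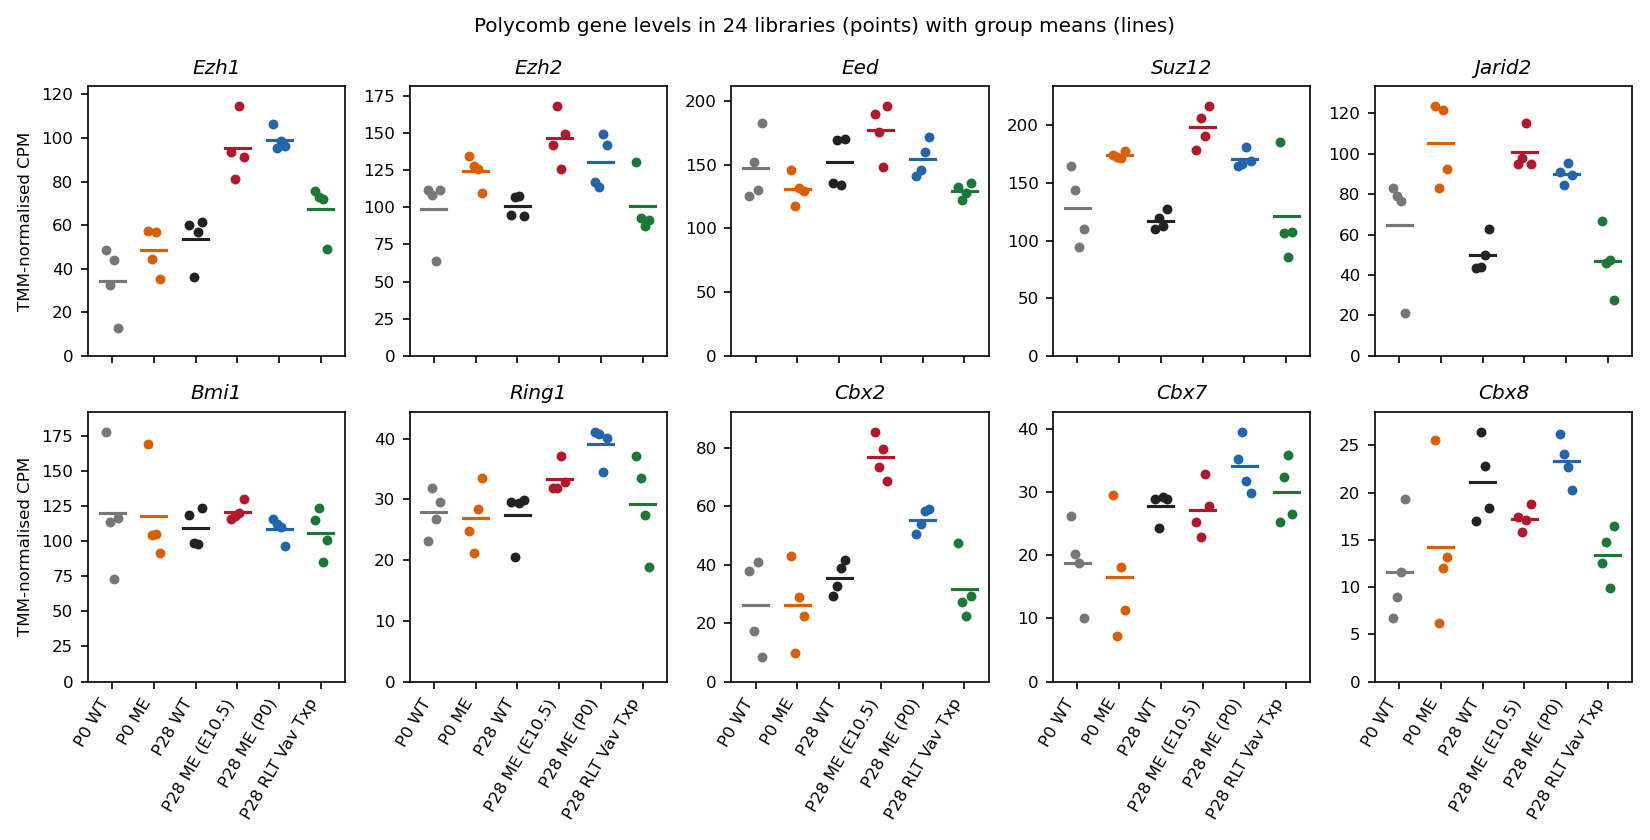
TMM-normalised CPM (vertical axes, each from 0) of the 10 Polycomb genes in the 6 groups (horizontal axis). Points are libraries and lines are means of 4. Ezh1 and Cbx2 are higher in both P28 ME groups than in every P28 WT library, while the means of Bmi1 lie between 106 and 121 CPM in all groups.

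Ezh2 (ENSMUSG00000029687, GRCm38 chromosome 6, 47530139 to 47595341) codes for the catalytic subunit of PRC2 in dividing cells. In P0 WT its level was 112, 108, 63.6 and 112 CPM, and in P28 WT it was 95.05, 107, 108 and 94.1 CPM. P0 WT library 3 lay under every P28 WT library, and the rest of the P0 WT libraries lay just above them. The log2 fold change from day 0 to day 28 in WT was 0.03 (edgeR: SE 0.17, adjusted p = 0.944), and without P0 WT library 3 it was -0.11 (edgeR adjusted p = 0.712). In P0 ME Ezh2 was at 134, 128, 126 and 109 CPM, and all but the lowest of these lay above every P0 WT library. P0 ME against P0 WT gave a log2 value of 0.33 (edgeR: SE 0.17, adjusted p = 0.378).

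In P28 ME (E10.5) Ezh2 stood at 142, 168, 126 and 149.5 CPM, above all 4 P28 WT libraries. Against P28 WT this was a log2 fold change of 0.54 (edgeR: SE 0.17, adjusted p = 0.0368). Only 1 of 8 fits without 1 library kept the call, and with offsets for GC content and transcript length the value was 0.26 (edgeR adjusted p = 0.389). In P28 ME (P0) it was at 117, 113, 149 and 142 CPM, also above every P28 WT library. This gave a log2 difference of 0.37 (edgeR: SE 0.17, adjusted p = 0.213). P28 RLT Vav Txp had 131, 92.9, 87.5 and 91.7 CPM, so that 3 libraries lay under those of P28 WT and 1 lay above them. Against P28 ME (E10.5) Ezh2 fell by 0.54 on the log2 scale in this group (edgeR: SE 0.17, adjusted p = 0.0271), with 1 overlapping library. Leaving out library 4 of P28 RLT Vav Txp, or any of 4 other libraries, ended that call.

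Ezh1 (ENSMUSG00000006920, chromosome 11, 101191115 to 101226463) codes for the alternative catalytic subunit. It was at 48.5, 32.7, 43.9 and 12.8 CPM in P0 WT, and at 60.3, 36.1, 56.7 and 61.4 CPM in P28 WT. All but 1 of the P28 WT libraries were above all P0 WT libraries, and that 1 lay among them. The log2 fold change was 0.64 (edgeR: SE 0.26, adjusted p = 0.148). Without P0 WT library 1 it was 0.85 and was called, while without library 4 it was 0.36 (edgeR adjusted p = 0.322). It was called also without both day 0 libraries numbered 1 and with the GC and length offsets. The lowest value came from P0 WT library 4, which also had the lowest Jarid2 and Cbx2 levels of that group.

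With the transgene induced at E10.5, Ezh1 stood at 57.3, 44.4, 56.7 and 35.1 CPM at day 0 and at 93.6, 81.2, 114.7 and 91.3 CPM at day 28, with no overlap. Ezh1 thus rose by 0.98 on the log2 scale (edgeR: SE 0.27, adjusted p = 0.0117). It was called in each of the 11 other settings and in each of the 8 fits without 1 library, over a range of 0.58, with GC and length offsets, to 1.07. The difference between the age changes in ME and in WT was 0.34 (edgeR: SE 0.37, adjusted p = 0.699), so the change in ME was not shown to differ from that in WT. Ezh2 in the same ME comparison gave a log2 fold change of 0.24 (edgeR: SE 0.17, adjusted p = 0.346).

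Against P28 WT, Ezh1 was higher in P28 ME (E10.5) with a log2 fold change of 0.83 (edgeR: SE 0.26, adjusted p = 0.0402), and the 2 groups did not overlap. The call held in 1 of 8 fits without 1 library, and with GC and length offsets the value was 0.37 (edgeR adjusted p = 0.237). P28 ME (P0) libraries stood at 106, 95.5, 98.8 and 96.2 CPM, again above all of P28 WT, and the difference was a log2 value of 0.89 (edgeR: SE 0.26, adjusted p = 0.0675). P28 RLT Vav Txp libraries were at 75.6, 73.1, 71.8 and 49.2 CPM, which overlapped P28 WT and lay under every P28 ME (E10.5) library. The log2 fold changes of this group were 0.33 against P28 WT (edgeR: SE 0.26, adjusted p = 0.649) and -0.50 against P28 ME (E10.5) (edgeR: SE 0.26, adjusted p = 0.201).

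Ordered by mean, P0 WT had the lowest Ezh1 at 34.5 CPM, then P0 ME with 48.4, P28 WT with 53.6, P28 RLT Vav Txp with 67.4, P28 ME (E10.5) with 95.2 and P28 ME (P0) with 99.2 CPM. Of the neighbours in this order, only P28 RLT Vav Txp and P28 ME (E10.5) did not overlap. For Ezh2 the order was P0 WT at 98.8 CPM, P28 RLT Vav Txp at 100.7, P28 WT at 101, P0 ME at 124, P28 ME (P0) at 130.5 and P28 ME (E10.5) at 146 CPM, and only P28 WT and P0 ME were neighbours without overlap.

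Levels of the 2 genes were set against each other per length, as RPKM, on the exonic length of GENCODE M21. Ezh2 was above Ezh1 in all 24 libraries, and the Ezh2:Ezh1 ratio of levels is given as a description. In P0 WT the ratio was 2.56, 3.70, 1.61 and 9.73, and in P28 WT it was 1.76, 3.30, 2.12 and 1.71. The geometric mean was 3.49 in P0 WT and 2.14 in P28 WT, with overlapping libraries. In P0 ME it was 2.61, 3.20, 2.47 and 3.47, with a geometric mean of 2.91. At day 28 with the same induction it was 1.69, 2.31, 1.22 and 1.83, with a geometric mean of 1.72, and every one of these lay under the P0 ME libraries. In P28 ME (P0) the ratio was 1.23, 1.32, 1.68 and 1.65 (geometric mean 1.46), under all 4 P28 WT libraries. The RLT Vav Txp ratios were 1.93, 1.42, 1.36 and 2.08 (geometric mean 1.67), overlapping P28 WT and both P28 ME groups. The mean log2 ratio fell by 0.71 from P0 WT to P28 WT, and by 0.21 without P0 WT library 4, the one at 9.73. In ME it fell by 0.76, and by 0.60 to 0.90 when 1 library was left out.

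**Figure D2:**
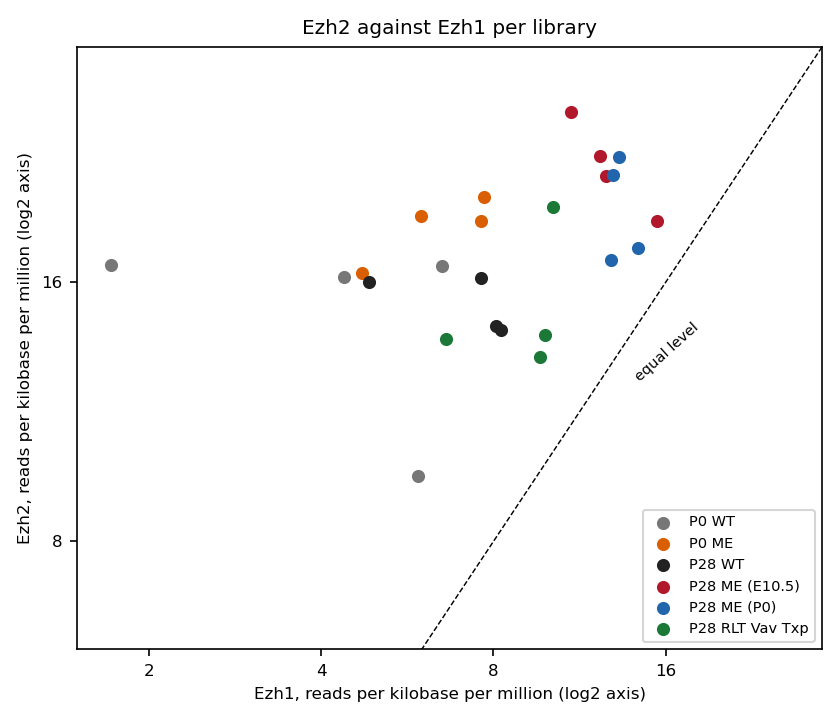
Ezh2 level (vertical) against Ezh1 level (horizontal) in each of the 24 libraries, both in RPKM on log2 axes, coloured by group. The dashed line marks equal levels: all libraries lie above it, and the P28 ME libraries have the highest Ezh1 levels.

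Eed (ENSMUSG00000030619, chromosome 7, 89954654 to 89980983) codes for the core PRC2 subunit that binds the trimethylated histone. Its level was 125, 152, 130.1 and 182.5 CPM in P0 WT and 136, 169.8, 134 and 170.1 CPM in P28 WT, which overlapped. In P0 ME it was at 146, 117, 132 and 129.5 CPM, and in P28 ME (E10.5) at 189.7, 176, 149 and 196 CPM. These last groups did not overlap, and the log2 fold change from day 0 to day 28 in ME was 0.44 (edgeR: SE 0.14, adjusted p = 0.0288). The call held in 8 of 11 other settings and in 3 of 8 fits without 1 library. In WT the same change was 0.05 (edgeR: SE 0.14, adjusted p = 0.893), and the difference between ME and WT was 0.39 (edgeR: SE 0.20, adjusted p = 0.319). Eed in P28 RLT Vav Txp stood at 132, 122, 128 and 135.5 CPM, under every P28 ME (E10.5) library. It fell by 0.46 on the log2 scale against that group (edgeR: SE 0.14, adjusted p = 0.0239), a call held in 2 of 8 fits without 1 library. Between P28 ME (E10.5) and P28 WT Eed gave 0.22 (edgeR: SE 0.14, adjusted p = 0.319).

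Suz12 (ENSMUSG00000017548, chromosome 11, 79993106 to 80034123) codes for the scaffold on which the other PRC2 subunits assemble. It was at 110, 119, 112.5 and 127 CPM in P28 WT and at 179, 207, 191 and 217 CPM in P28 ME (E10.5), with a wide gap between the groups. Suz12 was higher by a log2 value of 0.76 (edgeR: SE 0.18, adjusted p = 0.00891). It was called in all 10 other settings and in all 8 fits without 1 library, over a range of 0.64 to 0.83. With GC and length offsets it was the 1 Polycomb gene called in this comparison (0.70, edgeR adjusted p = 0.00658).

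In P28 ME (P0) Suz12 was at 165, 167, 181 and 169 CPM, above all of P28 WT and, in 3 libraries, under all of P28 ME (E10.5). Its log2 fold change against P28 WT was 0.54 (edgeR: SE 0.18, adjusted p = 0.0967). At day 0 it was at 164, 144, 94.5 and 110.2 CPM in P0 WT and at 174.5, 172, 172 and 178 CPM in P0 ME, so that ME lay above WT without overlap there too. That log2 fold change was 0.44 (edgeR: SE 0.18, adjusted p = 0.258). Libraries of P28 RLT Vav Txp were at 185.5, 106, 85.97 and 107 CPM: library 1 reached the ME levels and the others lay under all of P28 WT. Against P28 ME (E10.5) Suz12 fell by 0.71 on the log2 scale (edgeR: SE 0.18, adjusted p = 0.00889), and the call was lost only without P28 RLT Vav Txp library 4 among the 8 fits that left out 1 library. Between day 0 and day 28 it gave -0.13 in WT (edgeR: SE 0.18, adjusted p = 0.748) and 0.19 in ME (edgeR: SE 0.18, adjusted p = 0.506).

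Jarid2 (ENSMUSG00000038518, chromosome 13, 44729474 to 44921643) codes for an accessory subunit that helps bring PRC2 to chromatin. Its level was 43.3, 43.8, 49.7 and 63 CPM in P28 WT and 95.1, 97.8, 115 and 94.99 CPM in P28 ME (E10.5). The groups did not overlap, and the log2 fold change was 1.01 (edgeR: SE 0.28, adjusted p = 0.0196). The call held in 8 of 10 other settings and in 5 of 8 fits without 1 library, and with GC and length offsets the value was 0.56 (edgeR adjusted p = 0.082). In P28 ME (P0) Jarid2 was at 90.8, 84.5, 95.7 and 89.4 CPM, above all of P28 WT. There the log2 fold change was 0.85 (edgeR: SE 0.28, adjusted p = 0.0928).

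At day 0 Jarid2 stood at 83.1, 79.4, 76.5 and 21.1 CPM in P0 WT and at 124, 82.9, 122 and 92.6 CPM in P0 ME. ME overlapped WT by 1 library, and the log2 fold change was 0.69 (edgeR: SE 0.28, adjusted p = 0.251). From P0 WT to P28 WT it was -0.38 (edgeR: SE 0.28, adjusted p = 0.468). Without P0 WT library 4, the low one, this became -0.68 and was called, so the comparison turned on that library, while the other fits without 1 P0 WT library gave -0.24 to -0.26. In ME the change with age was -0.06 (edgeR: SE 0.28, adjusted p = 0.908). Jarid2 in P28 RLT Vav Txp was at 66.7, 45.9, 47.5 and 27.9 CPM, near P28 WT and under every library of P28 ME (E10.5). It fell by 1.10 on the log2 scale against P28 ME (E10.5) (edgeR: SE 0.28, adjusted p = 0.00901), a call lost only without P28 RLT Vav Txp library 4 among the 8 fits.

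Of the PRC1 genes, Bmi1 and Ring1 code for core subunits. Bmi1 (ENSMUSG00000026739, chromosome 2, 18677018 to 18686629) ran from 97.9 to 123.5 CPM in P28 WT, from 116 to 129.9 CPM in P28 ME (E10.5) and from 96.6 to 116 CPM in P28 ME (P0). It ran from 85.1 to 124 CPM in P28 RLT Vav Txp, from 73 to 178 CPM in P0 WT and from 91.8 to 169.8 CPM in P0 ME. Library 1 was the highest of both day 0 groups. Its log2 fold changes lay between -0.19 and 0.17 in the 9 comparisons, and it was called in none of them nor in any other setting.

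Ring1 (ENSMUSG00000024325, chromosome 17, 34020792 to 34024680) codes for a ubiquitin ligase of the complex. It was at 29.7, 20.5, 29.4 and 30 CPM in P28 WT, at 31.9, 31.8, 37.1 and 32.9 CPM in P28 ME (E10.5) and at 41.2, 40.8, 34.5 and 40.2 CPM in P28 ME (P0). Both ME groups lay above all of P28 WT. The log2 fold changes were 0.29 with E10.5 induction (edgeR: SE 0.20, adjusted p = 0.369) and 0.52 with P0 induction (edgeR: SE 0.20, adjusted p = 0.137). The second was called by limma voom and when only the groups compared were fitted. So were Ezh1, Ezh2, Suz12, Jarid2 and Cbx2 in that comparison. The RLT Vav Txp group was spread from 18.8 to 37.1 CPM, and at day 0 it ran from 21.2 to 33.6 CPM over both groups.

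Cbx2 (ENSMUSG00000025577, chromosome 11, 119022962 to 119031270) codes for a chromodomain subunit that compacts chromatin. It was at 29.2, 32.5, 38.7 and 41.7 CPM in P28 WT, at 85.5, 73.5, 79.5 and 68.7 CPM in P28 ME (E10.5), and at 50.4, 53.9, 58.4 and 59.1 CPM in P28 ME (P0). These 3 groups did not overlap, with P28 ME (P0) between the others. Against P28 WT the log2 fold change of P28 ME (E10.5) was 1.11 (edgeR: SE 0.37, adjusted p = 0.0499), at the threshold. No fit without 1 library kept the call, and with GC and length offsets the value was 0.73 (edgeR adjusted p = 0.127). P28 ME (P0) gave 0.64 against P28 WT (edgeR: SE 0.37, adjusted p = 0.34) and -0.47 against P28 ME (E10.5) (edgeR: SE 0.37, adjusted p = 1.0). Both of these differences were called by limma voom and when only the groups compared were fitted.

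At day 0 Cbx2 was uneven, at 37.8, 17.2, 40.9 and 8.49 CPM in P0 WT and 43.03, 9.81, 29.1 and 22.3 CPM in P0 ME. The log2 fold change between them was 0.00 (edgeR: SE 0.37, adjusted p = 1.0). From P0 ME to P28 ME (E10.5) Cbx2 rose without overlap, by 1.56 on the log2 scale (edgeR: SE 0.38, adjusted p = 0.00526). It was called in all 11 other settings and all 8 fits without 1 library, over a range of 1.17 to 1.92. In WT the change with age was 0.45 (edgeR: SE 0.37, adjusted p = 0.533). The difference between the ME and WT changes was 1.11 (SE 0.52), which had an unadjusted edgeR p of 0.0425 and an adjusted p of 0.284. Cbx2 in P28 RLT Vav Txp was at 47.5, 27.2, 22.4 and 29.4 CPM, under all of P28 ME (E10.5) and around P28 WT. Against P28 ME (E10.5) Cbx2 fell by 1.28 on the log2 scale (edgeR: SE 0.37, adjusted p = 0.0195), a call held in 5 of 8 fits without 1 library.

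Cbx7 (ENSMUSG00000053411, chromosome 15, 79915807 to 79971119) codes for the chromodomain subunit linked to stem cell self-renewal. It ran from 10.1 to 26.2 CPM in P0 WT, from 7.21 to 29.5 CPM in P0 ME and from 24.4 to 29.3 CPM in P28 WT. At day 28 it ran from 23 to 33 CPM in ME (E10.5), from 29.9 to 39.6 CPM in ME (P0) and from 25.3 to 36 CPM in RLT Vav Txp. It was called in no comparison, the nearest being the change with age in ME, 0.72 (edgeR: SE 0.30, adjusted p = 0.0963). Without P0 ME library 1 this change was 1.16 and was called, as it also was without both day 0 libraries numbered 1 and by limma voom. Without P0 ME library 2 it was 0.48 (edgeR adjusted p = 0.263), and with GC and length offsets 0.25 (edgeR adjusted p = 0.551).

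Cbx8 (ENSMUSG00000025578, chromosome 11, 119036305 to 119040969), a chromodomain gene beside Cbx2 on the chromosome, had the fewest reads of the 10. It was at 6.70, 8.96, 11.6 and 19.3 CPM in P0 WT and at 17.03, 26.4, 22.8 and 18.4 CPM in P28 WT, which overlapped by 1 library of P0 WT. The log2 fold change was 0.86 (edgeR: SE 0.32, adjusted p = 0.104). Without that library, P0 WT 4, it was 1.19 and was called, and the lowest value without 1 library was 0.67. With all libraries kept, the change was called with plain library totals and by limma voom. In P28 ME (E10.5) it ran from 15.8 to 18.7 CPM, against 20.2 to 26.2 CPM in P28 ME (P0), without overlap between the inductions. That difference was 0.44 on the log2 scale (edgeR: SE 0.32, adjusted p = 1.0). Limma voom and the fit of only these groups called it. Cbx8 in P28 RLT Vav Txp ran from 9.89 to 16.5 CPM, under every P28 WT library, with a log2 fold change of -0.66 (edgeR: SE 0.32, adjusted p = 0.329).

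**Figure D3:**
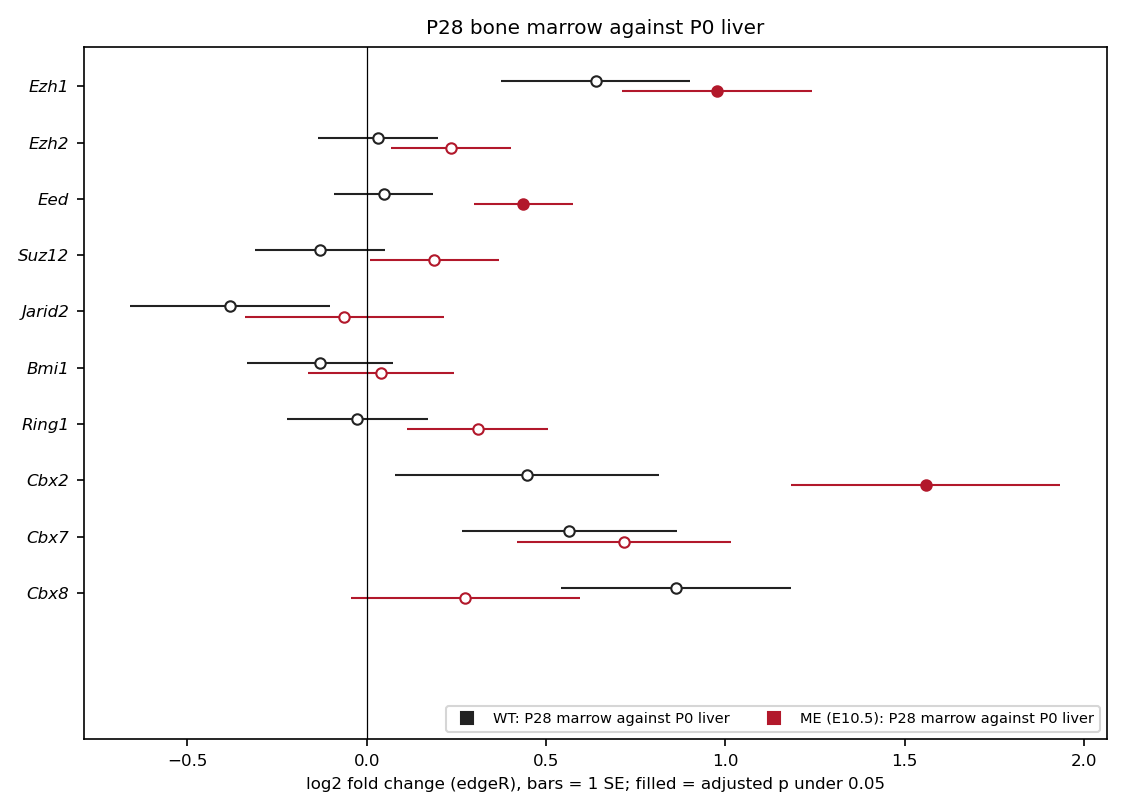
Log2 fold change from day 0 liver to day 28 marrow (horizontal axis) of the 10 Polycomb genes in WT and in ME with E10.5 induction. Bars are 1 SE and filled points have an adjusted p under 0.05: Ezh1, Eed and Cbx2 in ME, and none in WT.

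**Figure D4:**
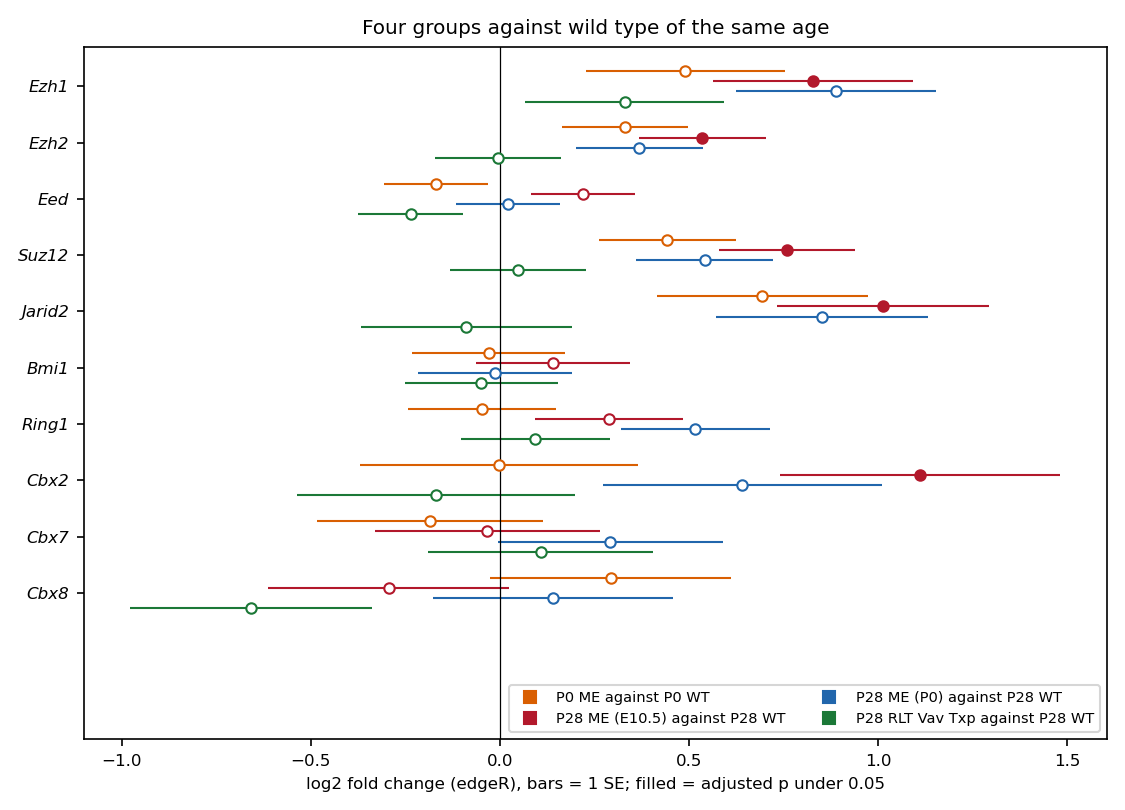
Log2 fold change against wild type of the same age (horizontal axis) for the 10 Polycomb genes in 4 groups. Bars are 1 SE and filled points have an adjusted p under 0.05, which Ezh1, Ezh2, Suz12, Jarid2 and Cbx2 reach in P28 ME (E10.5). The 3 comparisons at day 28 share the P28 WT libraries.

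Read over the 10 genes, the median log2 fold change against P28 WT was 0.41 in P28 ME (E10.5) and 0.44 in P28 ME (P0), where all genes tested had medians of -0.10 and -0.09. Both comparisons use the P28 WT libraries. In P28 ME (E10.5) 6 of the 10 lay above P28 WT without overlap and in P28 ME (P0) 7 did, beside 16.6% and 14.4% of all genes. Ezh1, Ezh2, Suz12, Jarid2, Ring1 and Cbx2 did so in both, and Cbx7 in P28 ME (P0). In P28 RLT Vav Txp the median was -0.03 against P28 WT, where all genes had 0.01. With the transgene at day 0 it was 0.15 (all genes -0.01), and 1 gene, Suz12, lay above P0 WT without overlap, beside 2.18% of all genes. From day 0 to day 28 it was 0.04 in WT (all genes -0.07) and 0.29 in ME (all genes -0.19).

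Genes of proliferation moved with several of these comparisons, and they are given beside them because Ezh2 is a gene of dividing cells. The summed level of 22 such genes was 3386 to 4328 CPM in P28 WT and 5879 to 8034 CPM in P28 ME (E10.5). Called higher there were 17 of the 22, beside 7.82% of all genes. The sum was 4120 to 5347 CPM in P28 ME (P0), with 0 of 22 called. The P28 RLT Vav Txp libraries had 5977, 4000, 3370 and 3906 CPM, and the first of these was also the library with high Ezh2 and Suz12. At day 0 it was 4069 to 5448 CPM in WT and 3440 to 4679 CPM in ME, which overlapped, with 0 of 22 called. From P0 ME to P28 ME (E10.5) 12 of the 22 were called higher, beside 9.79% of all genes. From P0 WT to P28 WT 5 of the 22 were called lower and 0 higher, while the Ezh2 log2 fold change was 0.03. In that comparison 7.68% of all genes were called in either direction. Their part in the Polycomb values was not tested.

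**Figure D5:**
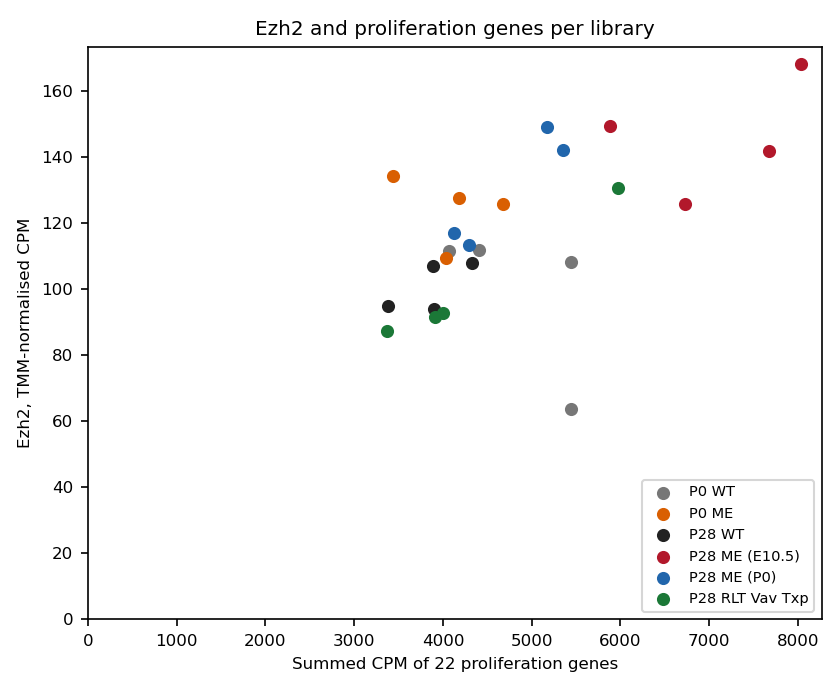
Ezh2 level (vertical, TMM-normalised CPM) against the summed level of 22 proliferation genes (horizontal, same unit) in each of the 24 libraries, both axes from 0. The P28 ME (E10.5) libraries lie at the right with 5879 to 8034 CPM, and the low Ezh2 point is P0 WT library 3.

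Other genes of the Polycomb pathway were counted from lists. In P28 ME (E10.5) against P28 WT, 7.82% of all genes were called higher. Of 8 PRC2 partners, 1 was higher in P28 ME (E10.5) than in P28 WT: Rbbp7, a histone chaperone subunit, with a log2 fold change of 0.47 (edgeR adjusted p = 0.0171). Of 21 PRC1 partners 3 were higher and 0 lower there: L3mbtl2 (0.83, edgeR: SE 0.24, adjusted p = 0.0245), Mga (0.82, edgeR: SE 0.24, adjusted p = 0.0261) and Kdm2b (0.70, edgeR: SE 0.23, adjusted p = 0.0412). These 3 belong to variant forms of PRC1 that lack the Polycomb CBX subunits such as CBX2, CBX7 and CBX8. Of 6 genes of enzymes that remove the marks, or their cofactors, 3 were higher: Asxl1 (0.84, edgeR: SE 0.22, adjusted p = 0.0128), Bap1 (0.76, edgeR: SE 0.23, adjusted p = 0.0331) and Asxl2 (0.70, edgeR: SE 0.20, adjusted p = 0.0201). BAP1 with an ASXL partner takes ubiquitin off histone H2A, the reverse of the PRC1 reaction. In P28 ME (P0), 0 of these partner and opposing genes were called against P28 WT, beside 1.57% of all genes.

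In P28 RLT Vav Txp against P28 ME (E10.5), 9.38% of the 23059 genes tested were called lower and 1959 were called higher. Of the 8 PRC2 partners 4 were lower and 1 was higher. Of the 21 PRC1 partners 8 were lower, and of the 6 opposing genes 1 was lower. Kdm2b fell by 0.92 on the log2 scale (edgeR: SE 0.23, adjusted p = 0.00704). Phf19, a chromatin-binding partner of PRC2, fell by 0.92 (edgeR: SE 0.29, adjusted p = 0.0283). Phc1, which links PRC1 complexes to each other, fell by 0.89 (edgeR: SE 0.20, adjusted p = 0.00372), and Phc2 fell by 0.82 (edgeR: SE 0.26, adjusted p = 0.0273). Asxl1 fell by 0.89 (edgeR: SE 0.22, adjusted p = 0.00671). Rbbp4, the partner that was higher, had a log2 fold change of 0.47 (edgeR adjusted p = 0.0231). In the same comparison 14 of the 22 proliferation genes were lower, and all 7 macrophage markers were higher. Of 8 LSK and stem cell markers, 4 were lower (Cd34, Flt3, Mecom and Hlf), and their summed level was 2279 to 3316 CPM against 4827 to 5621 CPM in P28 ME (E10.5). Among the other lists, 4 of 6 mast cell and basophil markers and 4 of 7 B-lymphoid markers were higher, with 1 B-lymphoid marker lower. Higher too were 2 of 4 megakaryocyte, 2 of 6 hepatocyte, 1 of 9 erythroid and 1 of 8 neutrophil markers. The part of these markers in the lower Polycomb levels was not tested. Against P28 WT, 0 of the pathway genes were called in P28 RLT Vav Txp, beside 4.12% of all genes.

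From day 0 to day 28, 719 of the 23059 genes tested were called higher and 1052 lower in WT. In ME 2257 were called higher and 1949 lower. Of the 21 PRC1 partners, 3 were higher in WT: Cbx6 (0.96, edgeR: SE 0.18, adjusted p = 0.0016), Pcgf1 (0.87, edgeR: SE 0.25, adjusted p = 0.0329) and Scmh1 (0.85, edgeR: SE 0.23, adjusted p = 0.021). In ME 5 of the 21 were higher, with Cbx6 at 1.18 (edgeR: SE 0.18, adjusted p = 0.000114) and Phc1 at 0.95 (edgeR: SE 0.20, adjusted p = 0.00177). Also in ME, 3 of the 8 PRC2 partners were higher and 1 lower, and 2 of the 6 opposing genes were higher, Asxl2 by 1.19 on the log2 scale (edgeR: SE 0.20, adjusted p = 0.000211). Of 7 genes known to be silenced by Polycomb in these or other cells, 6 passed the filter. The B-lymphoid regulators Ebf1 and Pax5 were lower at day 28 in both genotypes, Ebf1 by -3.89 in WT (edgeR: SE 0.71, adjusted p = 0.00148) and -5.99 in ME (edgeR: SE 0.78, adjusted p = 2.83e-05). Pax5 gave -6.95 in WT (edgeR: SE 1.58, adjusted p = 0.00687) and -5.19 in ME (edgeR: SE 1.41, adjusted p = 0.0116). Of the 7 B-lymphoid markers, 6 were lower and 1 was higher at day 28 in WT. Their part in the Ebf1 and Pax5 values was not tested. The change of the ME effect from day 0 to day 28 was called for 1 gene of the pathway lists, Rbbp7 (0.77, edgeR: SE 0.18, adjusted p = 0.0426). That change was called for 0.72% of all genes.

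Likeness was measured as the Pearson correlation of log2 CPM over the 24 libraries, among 9680 genes, as a description in which the libraries share groups, tissue and depth. The 5 genes most like Ezh1 were Gne (0.958), Vps39 (0.951), Jak1 (0.949), Rfx5 (0.948) and Acap1 (0.947). Among the 5 most like Ezh2 were Smc4 (0.879), Suz12 (0.859), Aplf (0.858) and Hmmr (0.849). Ezh1 and Ezh2 had a correlation of 0.364 with each other, and of -0.227 after group means were taken out. Ezh2 and Suz12 kept 0.698 after group means were taken out, and Ezh1 and Jarid2 had 0.563 before and 0.879 after.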

How the data were processed

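The authors deposited raw read counts per Ensembl gene for 24 libraries in 1 table. STAR 2.7.9a, Subread, featureCounts 2.0.3 and GRCm38 appear in the submitters' processing notes, and the strand and multi-match settings are not given in the sources used here. Genes overlapping Ezh2, Eed, Suz12, Jarid2 or Cbx7 may therefore share reads with them. The table had 55774 rows, and 287 identical repeats were dropped. A GENCODE M21 gene was matched to 55141 IDs.

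Genes were filtered with filterByExpr (minimum count 10), scaled by TMM and fitted with robust edgeR quasi-likelihood on all libraries (1 mean per group, 18 residual degrees of freedom). In the smallest library 1 CPM was 31.2 reads before scaling. Log2 CPM used a prior count of 2, and likeness a mean log2 CPM of at least 3. Numbered libraries were not paired in this fit. The scripts were tested on simulated data. The fits ran in R 4.3.3 with edgeR 4.0.16, DESeq2 1.42.0 and limma 3.58.1, and the figures in matplotlib 3.10.9 with Python 3.11.15.

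The members, gene lists and naming rule were chosen with earlier results of these data known: all 10 members are given, and at most 6 called pathway genes per comparison by size of change. Rbbp7 and Rbbp4 in the day 28 comparisons were named outside that rule. Alternatives were RLE factors, plain totals, DESeq2, limma voom with quality weights, 2 other filters, fits of only the groups compared, each library left out in turn, and a replicate block. GC and length offsets, and leaving out the libraries numbered 1, were chosen after seeing the data. Of the 5 genes most like Ezh2, 1 is not reported here. The NRF1 motif was a GC-rich palindrome and its one-base variant.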

Additional observations from a re-analysis of the deposited data

Results flagged for a closer look

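In 8 of 66 groups of 4 values, 1 library lay far from the other 3 by Dixon's test at the 95% level, which chance gives in about 1 of 20 groups. Ezh1 was lowest in P28 RLT Vav Txp library 4, at 49.2 CPM with the nearest library at 71.8 CPM. Ezh2 was low in P0 WT library 3, at 63.6 CPM with the nearest at 108 CPM, and high in P28 RLT Vav Txp library 1, at 131 CPM with the nearest at 92.9 CPM. Jarid2 was low in P0 WT library 4, at 21.1 CPM with the nearest at 76.5 CPM, and high in P28 ME (E10.5) library 3, at 115 CPM with the nearest at 97.8 CPM. Ring1 was low in P28 WT library 2, at 20.5 CPM with the nearest at 29.4 CPM, and in P28 ME (P0) library 3, at 34.5 CPM with the nearest at 40.2 CPM. Cbx7 was low in P28 WT library 2, at 24.4 CPM with the nearest at 28.9 CPM. Ring1 and Cbx7 thus share 1 low library, and the cause was not tested.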

How the results depend on the processing

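Counts of called Polycomb genes moved in 5 of 9 comparisons, and the cause was not tested. The number of all genes called can move with the setting too, and it is given only for the first comparison. P28 WT against P0 WT went from 0 to 1 with plain library totals, with limma voom, with GC and length offsets and without the day 0 libraries numbered 1, and ranged from 0 to 2 when 1 library was left out. P28 ME (E10.5) against P28 WT went from 5 to 2 with RLE factors, 1 with plain library totals, 2 without a filter, 2 with at least 10 counts in 12 libraries and 1 with GC and length offsets, and ranged from 1 to 3 when 1 library was left out. P28 ME (P0) against P28 WT went from 0 to 2 with DESeq2, 6 with limma voom and 6 when only the groups compared were fitted. P28 ME (P0) against P28 ME (E10.5) went from 0 to 2 with limma voom and to 2 in the fit of only these groups. P28 RLT Vav Txp against P28 ME (E10.5) went from 5 to 2 without a filter and 3 with GC and length offsets, and ranged from 0 (without P28 RLT Vav Txp library 4) to 5. In the other 4 comparisons the count stayed within 1.5 times.

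Over all numbered groups together, shared replicate numbers did not mark pairs of like libraries. Of 40 same-numbered pairs 14 correlated above 0.1 (median 0.0295, range -0.394 to 0.66), and 7 of 20 libraries were closest to their own number. Between P0 WT and P0 ME the pairs numbered 1 to 4 gave 0.66, 0.053, 0.371 and 0.464, so a pairing within day 0 was not excluded. With or without the replicate block 0 Polycomb genes were called there. The block fits 1 effect per number over all numbered groups, so it does not test a pairing confined to day 0. With the replicate block, P28 ME (P0) against P28 WT had 2 called genes, and 1 in the fit of the same 20 libraries with no replicate block.

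Of 1700 single-gene values recomputed, 1502 kept direction and side of the threshold, 72 lost a call, 32 gained one and 94 uncalled values changed sign. No called value changed direction. Plain library totals moved the median log2 difference of all genes by 0.149 in P28 WT against P0 WT, by -0.116 in P28 ME (E10.5) against P28 WT, by 0.105 between the inductions and by -0.186 in the change of the ME effect with age; no other shift under that scaling or RLE passed 0.1. Library totals were at least 31233688 counts.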
